A study of Mus musculus with 14 samples.

Results

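The 9 genes described here in mouse ventricular tissue carry timing from the circadian clock to other genes, or follow it: Dbp, Tef, Hlf, Nfil3, Bhlhe40, Bhlhe41, Ciart, Rora and Tspan4. They were taken by symbol from a table of 54532 gene IDs, each symbol matched 1 row, and all 9 were among the 15876 genes that passed the filter on low counts. The study measured polyadenylated RNA in hearts of wild type mice and of mice lacking Ccl24, the gene of a CC chemokine that attracts eosinophils and other leukocytes. Each mouse had either transverse aortic constriction (TAC), a surgical narrowing of the aorta that loads the left ventricle with pressure, or a sham operation, and tissue was taken 1 week later. The 14 libraries form 4 groups: 2 of wild type sham, 6 of wild type TAC (numbered 1, 2, 3, 4, 6 and 7), 2 of knockout sham and 4 of knockout TAC (numbered 1, 2, 4 and 5). The sources used here do not give the hour of tissue collection, the strain, sex and age of the mice or the construction of the Ccl24 allele. A difference in the hour of collection between groups and a difference of genotype or surgery therefore cannot be told apart.

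In the mammalian clock, ARNTL (BMAL1) pairs with CLOCK or NPAS2 and activates genes through E-box motifs, and the PER and CRY proteins shut this activity off in a daily cycle. Dbp, Ciart and the Bhlhe genes are direct targets of that activation, and DBP, TEF and HLF, which are related bZIP activators, then pass the rhythm on through D-box motifs that the repressor NFIL3 also binds. In the heart, the clock of the muscle cells sets daily rhythms of metabolic and ion channel genes. The label of clock output factors fits the members unevenly: RORA is an activator of Arntl inside the clock loop, and TSPAN4 is a membrane protein of the tetraspanin family, known for rhythmic transcripts in many tissues, and no transcription factor.

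Libraries held 17072262 to 33123052 counts, and the members held 74 to 5814 counts in a library. The 8 cardiomyocyte markers summed to 46760 to 79040 CPM (counts scaled to the size of the library) over all libraries, so the defining genes of heart muscle were present. Knockout libraries held 3 to 8 Ccl24 counts and wild type libraries 56 to 105, except the library labelled wild type TAC 1, which held 3. That library goes against its label, and values without it are given beside many of the results that change. Fibroblast markers (8 genes) summed to 2076 to 2340 CPM in wild type sham, 3296 to 9713 in wild type TAC, 1905 to 2042 in knockout sham and 2447 to 4010 in knockout TAC. Mitochondrial transcripts took 18.46% to 18.81% of the counts in wild type sham, 10.13% to 17.05% in wild type TAC, 20.52% to 23.65% in knockout sham and 14.91% to 19.18% in knockout TAC. The knockout sham libraries thus stood above every other library in this share, and also in the sum of the cardiomyocyte markers (75770 to 79040 CPM). In bulk tissue, fewer cells of a type and less RNA per cell cannot be told apart.

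The promoters of the members were searched for the motifs of the clock, because several members lay low in the same libraries. Windows from 250 bases before to 50 bases after a RefSeq start site (GRCm38.p6) were held for 8 of the 9 members, and Bhlhe40 had no entry. The letters CACGTG, the E-box, which reads the same on both strands, lay in a window of 4 members: Tef, Bhlhe41, Ciart and Tspan4. Of all 27025 genes with a window, 8.09% held it. Ciart held 3 of them, a number reached in 0.0883% of the 32851 windows. The D-box letters TTATGTAA or TTACGTAA, on either strand, were in none of the member windows and in 1.06% of all windows. The ROR element TAGGTCA, on either strand, was in the window of Nfil3 and in 2.61% of all windows. A match is a description of the letters, and no binding was measured. The stretches below hold the E-boxes, in capitals, and lie upstream of the start site and outside annotated exons. The first is Ciart at chr3:95882252-95882478 on the minus strand, with E-boxes that begin 116, 58 and 44 bases before the start site, and Tef follows at chr15:81811164-81811413 on the plus strand, with 1 at 138 bases before the second of its start sites. The window of the first start site of Tef also holds 1 E-box, but has no upstream base outside exons and is not printed. Bhlhe41 at chr6:145865559-145865670 on the minus strand holds 1 at 153 bases, and Tspan4 at chr7:141476130-141476379 on the plus strand holds 1 at 51 bases before the second of its start sites.
Ciart: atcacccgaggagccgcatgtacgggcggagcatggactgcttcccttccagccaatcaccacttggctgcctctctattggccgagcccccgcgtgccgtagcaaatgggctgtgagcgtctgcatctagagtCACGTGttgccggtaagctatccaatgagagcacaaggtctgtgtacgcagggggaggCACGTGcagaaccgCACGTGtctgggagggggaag
Tef: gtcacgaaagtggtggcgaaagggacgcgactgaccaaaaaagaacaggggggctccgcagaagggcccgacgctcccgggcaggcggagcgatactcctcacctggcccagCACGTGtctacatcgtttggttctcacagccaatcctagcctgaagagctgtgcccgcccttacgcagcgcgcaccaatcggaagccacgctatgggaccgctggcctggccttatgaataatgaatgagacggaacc
Bhlhe41: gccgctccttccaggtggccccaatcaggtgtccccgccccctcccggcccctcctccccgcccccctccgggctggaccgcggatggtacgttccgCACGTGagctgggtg
Tspan4: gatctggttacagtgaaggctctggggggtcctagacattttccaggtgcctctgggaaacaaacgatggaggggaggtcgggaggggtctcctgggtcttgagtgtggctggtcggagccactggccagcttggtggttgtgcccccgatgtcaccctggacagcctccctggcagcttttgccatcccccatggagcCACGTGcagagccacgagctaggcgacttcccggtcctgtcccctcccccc

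Per length of exons, Dbp was the most abundant member in wild type sham hearts, with 42.8 ± 3.92 RPKM (reads per kilobase of exon, from CPM, mean ± SD, n = 2). Tef followed with 31.7 ± 0.255, Tspan4 with 21.6 ± 0.0354 and Bhlhe40 with 18.2 ± 0.219. Hlf at 5.43 ± 0.0523, Bhlhe41 at 4.75 ± 0.287, Nfil3 at 4.25 ± 0.504, Ciart at 4.24 ± 0.0898 and Rora at 2.09 ± 0.103 RPKM formed the lower part of the order. The ranges of Bhlhe41 and Nfil3, and those of Nfil3 and Ciart, overlapped, and the other neighbours in this order did not. In knockout sham hearts Tef came first, at 13.8 ± 0.559 RPKM, Dbp second, at 12.8 ± 0.537, and Nfil3, at 8.11 ± 0.0141 RPKM, stood above Bhlhe41, Hlf, Ciart and Rora. In knockout TAC hearts Hlf was the lowest member, at 1.16 ± 0.387 RPKM (n = 4), and its range overlapped that of Rora.

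**Figure D1:**
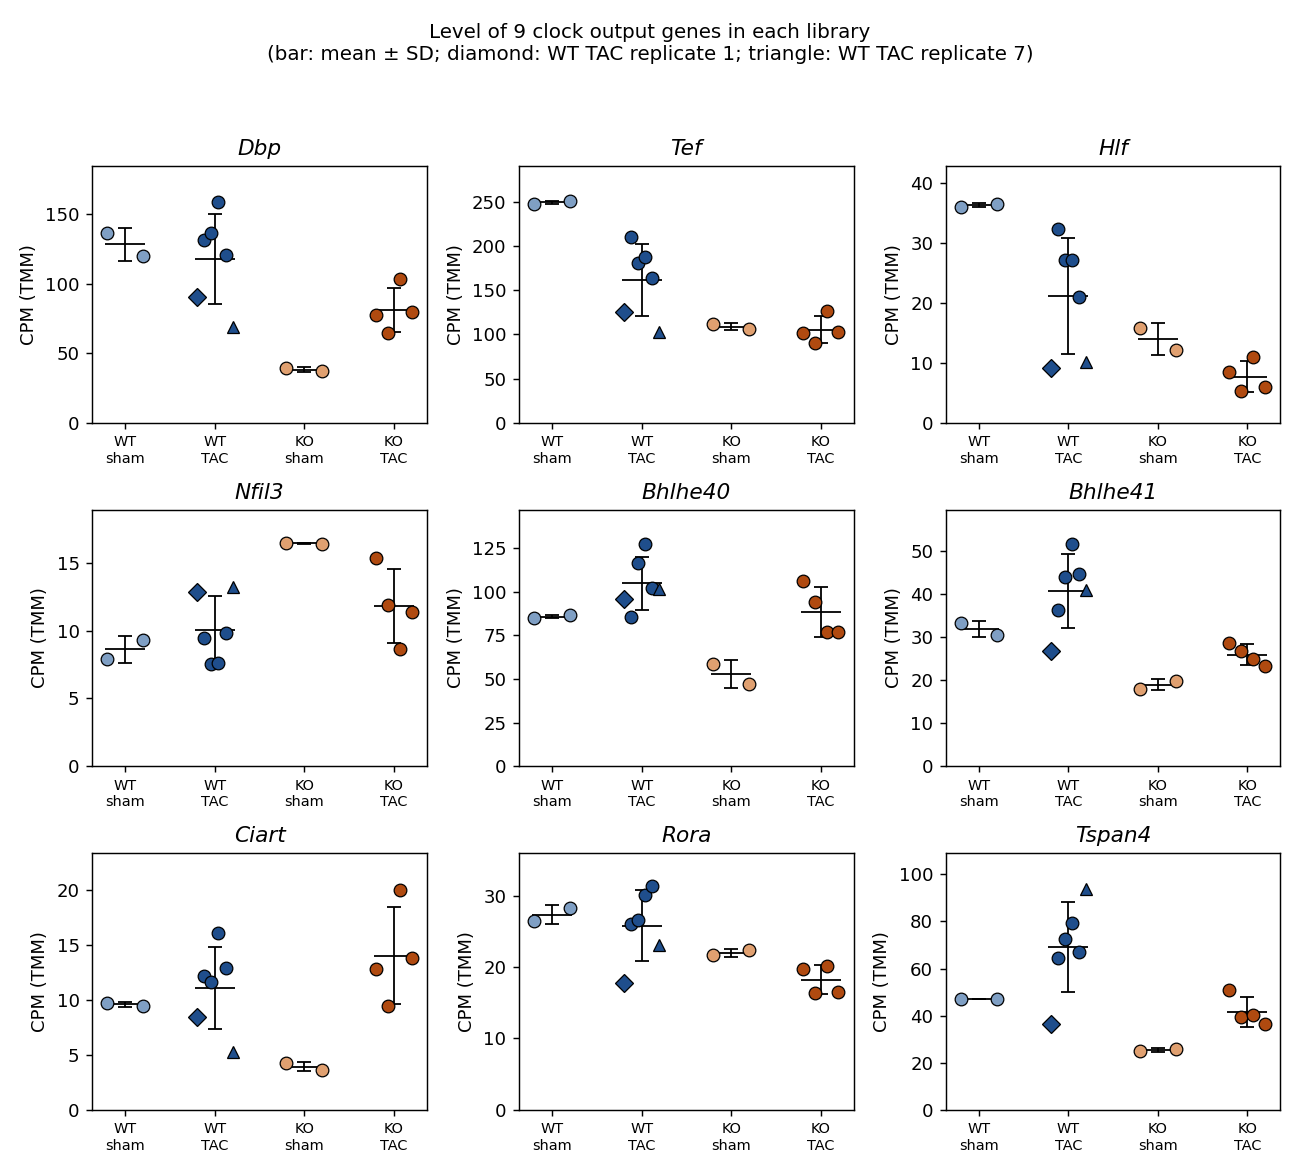
Levels of the 9 genes as CPM with TMM scaling (vertical axis, from 0) in each library of the 4 groups (horizontal axis). Points are libraries, lines and bars are the mean and SD, the diamond is the library labelled wild type TAC 1 and the triangle is wild type TAC replicate 7. In the sham groups Dbp lies at 136.5 and 119.9 CPM in wild type and at 39.4 and 37.1 CPM in knockout.

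Dbp, on chromosome 7 at 45705088 to 45710203 (plus strand, GRCm38), encodes an activator and is itself a direct target of E-box activation. Its promoter window held no CACGTG, and the rest of the gene was not searched. It measured 136.5 and 119.9 CPM in the wild type sham libraries and 39.4 and 37.1 CPM in the knockout sham libraries. The 4 knockout TAC libraries held 77.3, 64.9, 103 and 79.3 CPM, and the 6 wild type TAC libraries ran from 69.0 over a median of 125.9 to 158.5 CPM. Knockout sham was thus the lowest group, without overlap with any other, while the knockout TAC range was overlapped by the 2 lowest wild type TAC libraries, replicates 7 and 1. Dbp shares 539 exon bases (18.01% of its exons) with Sphk2 on the opposite strand, and whether reads were counted by strand is not given. Sphk2 held 7898 counts over all libraries against 32404 of Dbp, and it passed the test in none of the 5 comparisons.

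Tef, on chromosome 15 at 81802421 to 81826863 (plus strand), was at 248 and 250.8 CPM in wild type sham, 112 and 105.8 in knockout sham and 101.2, 90.7, 126.4 and 103 in knockout TAC. Wild type TAC libraries ran from 102.4 over a median of 172.6 to 210.7 CPM. Both knockout groups thus lay at less than the level of either wild type sham library, whatever the surgery. Hlf, on chromosome 11 at 90336536 to 90390895 (minus strand), showed the widest spread of the family. It stood at 36.0 and 36.5 CPM in wild type sham, 15.9 and 12.1 in knockout sham and 8.54, 5.35, 11 and 5.98 in knockout TAC. Wild type TAC libraries held 9.10 at the lowest, 24.1 at the median and 32.3 CPM at the highest, so that replicates 1 and 7 fell among the knockout TAC values and replicates 2, 3, 4 and 6 lay above them.

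Nfil3, on chromosome 13 at 52967209 to 52981073 (minus strand), encodes the repressor that competes with the 3 activators at D-boxes. Between the sham groups its levels ran the other way. From knockout sham to knockout TAC, Nfil3 and Hlf were both lower in every TAC library. Wild type sham libraries held 7.89 and 9.34 CPM, knockout sham libraries 16.4 and 16.4 CPM, and knockout TAC libraries 15.3, 11.9, 8.66 and 11.4 CPM. In wild type TAC the lowest, median and highest values were 7.52, 9.64 and 13.2 CPM. Knockout sham was the highest group for Nfil3, above every library of the other 3 groups.

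Bhlhe40 and Bhlhe41 encode repressors that bind E-boxes, and Ciart encodes a repressor that acts on the ARNTL and CLOCK complex. Bhlhe40, on chromosome 6 at 108660629 to 108666925 (plus strand), measured 85.0 and 86.5 CPM in wild type sham, 58.6 and 47.2 in knockout sham and 106.3, 94.2, 77.0 and 76.7 in knockout TAC. Wild type TAC libraries ran from 85.3 over 101.8 to 127.2 CPM, and the knockout sham libraries were the lowest of the 14. Bhlhe41, on the same chromosome at 145858243 to 145865558 (minus strand), was at 33.3 and 30.5 CPM in wild type sham, 18.0 and 19.9 in knockout sham and 28.8, 26.9, 24.97 and 23.4 in knockout TAC. Its wild type TAC values were 26.8 at the lowest, 42.6 at the median and 51.6 CPM at the highest, and the lowest, the library labelled replicate 1, was the 1 that fell within the knockout TAC range. Ciart, on chromosome 3 at 95878503 to 95882251 (minus strand), held 9.73 and 9.44 CPM in wild type sham and 4.21 and 3.62 CPM in knockout sham. Knockout TAC hearts held 12.8, 9.44, 20.02 and 13.8 CPM of Ciart, and wild type TAC hearts 5.24, 11.9 and 16.03 CPM as the lowest, median and highest value. For Ciart the knockout sham libraries were again the lowest of the 14, and knockout TAC had the highest mean, 14.01 ± 4.42 CPM (SD, n = 4).

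Rora, on chromosome 9 at 68653786 to 69388246 (plus strand), encodes a nuclear receptor that activates Arntl through ROR elements. It measured 26.4 and 28.3 CPM in wild type sham, 21.6 and 22.4 in knockout sham, 19.8, 16.4, 20.2 and 16.6 in knockout TAC, and 17.8, 26.3 and 31.4 as the lowest, median and highest wild type TAC values. The library labelled wild type TAC 1 was the lowest of its group and the 1 within the knockout TAC range. Tspan4, on chromosome 7 at 141475240 to 141493427 (plus strand), encodes a tetraspanin, a class of membrane proteins that organise other proteins in the membrane. Its libraries stood at 47.1 and 47.0 CPM in wild type sham, 24.9 and 26.0 in knockout sham, 50.9, 39.4, 40.2 and 36.3 in knockout TAC, and 36.6, 69.9 and 93.9 as the lowest, median and highest of wild type TAC. In 5 of 6 wild type TAC libraries Tspan4 lay above every other group, and the exception was again the library labelled replicate 1. Tspan4 shares 292 exon bases (13.41%) with Chid1 on the opposite strand, and Chid1 passed the test in none of the 5 comparisons.

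Knockout sham hearts were compared with wild type sham hearts to see how the members stood without pressure load. None of the 9 members passed the threshold in edgeR's quasi-likelihood test (adjusted p of 0.05, Benjamini-Hochberg over all 15876 genes), where 0.126% of all genes did. The values of 8 members were lower in both knockout libraries than in both wild type libraries, and those of Nfil3 were higher. At this group size 26.3% of all genes were lower and 26.6% higher without overlap. The log2 fold change was -1.75 for Dbp (SE 0.32, adjusted p = 0.06), a level 3.35-fold lower, and -1.20 for Tef (SE 0.26, adjusted p = 0.104). Hlf stood at -1.37 (SE 0.55), Ciart at -1.29 (SE 0.44), Tspan4 at -0.89 (SE 0.30), Bhlhe41 at -0.75 (SE 0.21), Bhlhe40 at -0.70 (SE 0.18), Rora at -0.31 (SE 0.20) and Nfil3 at 0.93 (SE 0.28), with adjusted p of 0.185 to 0.587. Dbp ranked 26th and Tef 60th by p among all genes. At an unadjusted p under 0.05 there were 8 of 9 members, all but Rora, against 11.3% of all genes. The median log2 fold change was -0.89 over the members and 0.0075 over all genes. Other tools called Dbp alone (limma voom, 17 of all genes called), or Dbp, Tef and Bhlhe40 (DESeq2, 147 of all genes called). The library labelled wild type TAC 1 was also left out of the shared estimate of the spread. Dbp, Bhlhe41 and Tspan4 then each passed (adjusted p = 0.0351), where 0.397% of all genes did, and their fold changes kept their values. Over the 14 fits that left out 1 library, the adjusted p ran from 0.00684 to 0.556 for Dbp, from 0.0351 to 0.925 for Bhlhe41 and from 0.0351 to 0.998 for Tspan4. Dbp also passed without wild type TAC replicate 4, and Dbp and Tef without replicate 7. The part that the higher mitochondrial share of the knockout sham libraries (20.52% to 23.65%) had in these differences was not tested.

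**Figure D2:**
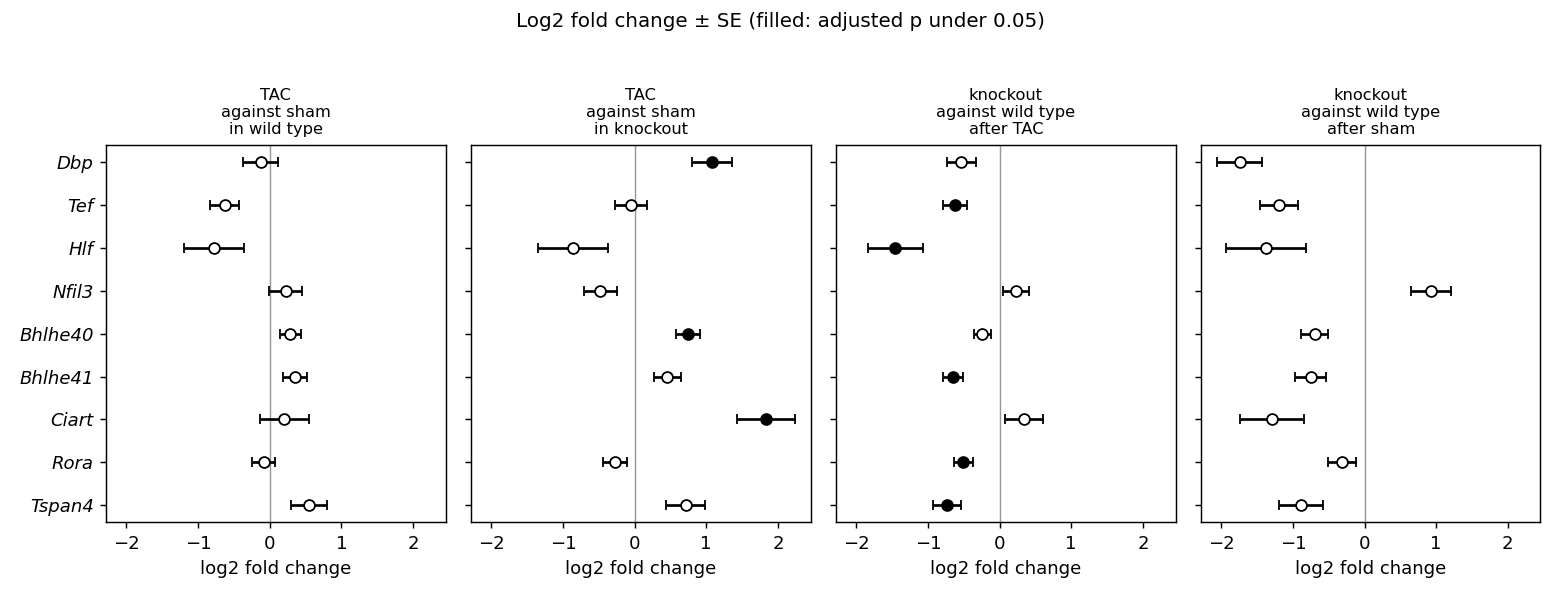
Log2 fold change (horizontal axis) with its SE for each of the 9 genes (vertical axis) in 4 comparisons, with filled points for an adjusted p under 0.05. After sham, 8 genes lie left of 0 and none is filled; TAC against sham in knockout has Dbp, Bhlhe40 and Ciart filled to the right, and knockout against wild type after TAC has 5 filled points to the left.

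After TAC in knockout hearts, Dbp, Bhlhe40 and Ciart rose relative to knockout sham. Ciart rose 3.57-fold (log2 fold change 1.84, SE 0.40, adjusted p = 0.025), Dbp 2.12-fold (1.08, SE 0.28, adjusted p = 0.0497) and Bhlhe40 1.68-fold (0.74, SE 0.16, adjusted p = 0.0204). These 3 of 9 calls, all higher, stand against 4.08% of all genes called and 2.36% called higher. All 4 TAC libraries lay above both sham libraries for 5 members, these 3 with Bhlhe41 and Tspan4, and below both for Hlf, Nfil3 and Rora, where 17% of all genes were higher and 17.6% lower without overlap. The members that did not pass were Tspan4 at 0.71 (SE 0.27, adjusted p = 0.154), Bhlhe41 at 0.46 (SE 0.19), Tef at -0.05 (SE 0.22), Rora at -0.27 (SE 0.17), Nfil3 at -0.48 (SE 0.23) and Hlf at -0.86 (SE 0.49, adjusted p = 0.345). Within the bZIP family, Dbp thus rose while the estimates of Tef and Hlf were near or below 0, and the differences between these genes were not tested. Mitochondrial transcripts took 14.91% to 19.18% of the counts in these TAC libraries and 20.52% to 23.65% in the sham libraries, and the part of this share in the calls was not tested. Immediate early genes, which respond within minutes to stimuli, also passed in this comparison: 9 of 18 rose, among them Egr3 (2.94, SE 0.37), Egr2 (2.93, SE 0.44), Nr4a1 (1.82, SE 0.24) and Jun (0.87, SE 0.11), and their part in the change of the members was not tested. The calls rest on few libraries. A fit without knockout sham replicate 1 or 2 leaves 1 library there, which is assumed to vary like the other groups. Calls from such a fit cannot be relied on, and the log2 fold change of Bhlhe40 was 0.91 and 0.59, in that order. Ciart was the 1 member that passed without knockout TAC replicate 2, where 200 of all genes passed in place of 648. Dbp, close to the threshold, lost its call in 11 of 14 fits that left out 1 library (adjusted p 0.00723 to 0.405) and held it without wild type TAC replicate 1, 4 or 7. Without the library labelled wild type TAC 1, Tspan4 passed as well (adjusted p = 0.0169, range over these fits 0.0169 to 0.589). In that fit 5.3% of all genes were called, and 10 of 18 immediate early genes rose.

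In wild type hearts, none of the 9 members passed between TAC and sham, where 12.2% of all genes did. Tef was lower in all 6 TAC libraries, at -0.62 (SE 0.20, adjusted p = 0.058), and so was Hlf, at -0.78 (SE 0.42, adjusted p = 0.236). They were the 2 members without overlap, and 16.6% of all genes were lower without overlap. The estimates of Tspan4, at 0.55 (SE 0.25, adjusted p = 0.157), Bhlhe41, at 0.35 (SE 0.17), Bhlhe40, at 0.29 (SE 0.15), Nfil3, at 0.23 (SE 0.23), and Ciart, at 0.21 (SE 0.34), lay above 0. Dbp and Rora were at -0.13 (SE 0.25) and -0.08 (SE 0.16). At an unadjusted p under 0.05 there were 2 members, Tef and Tspan4, against 30.1% of all genes, and limma voom called none and DESeq2 called Tef. Without the library labelled wild type TAC 1, Tspan4 (0.68, adjusted p = 0.0083) and Bhlhe41 (0.45, adjusted p = 0.022) passed, and Tef passed without replicate 2 or without replicate 7. The adjusted p over the 14 fits that left out 1 library ran from 0.0083 to 0.45 for Tspan4, from 0.022 to 0.553 for Bhlhe41 and from 0.0198 to 0.298 for Tef. Fibroblast and macrophage markers rose with TAC in wild type, 6 of 8 and 8 of 8 genes, while 3 of 8 cardiomyocyte markers fell. Of the immediate early genes 3 of 18 rose, Egr2 (1.78, SE 0.40), Egr3 (1.30, SE 0.31) and Atf3 (1.58, SE 0.41), and the part of these lists in the levels of the members was not tested. Without the library labelled wild type TAC 1, 17.4% of all genes were called and 4 members did not overlap between the groups, Bhlhe41 and Tspan4 higher and Tef and Hlf lower, where 20.2% of all genes were higher and 20.3% lower without overlap.

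After TAC, 5 of the 9 members were lower in knockout than in wild type hearts: Tef, Hlf, Bhlhe41, Rora and Tspan4. All genes were called at 9.34%, and 5.63% were called lower. Hlf differed most, 2.74-fold lower (log2 fold change -1.45, SE 0.38, adjusted p = 0.0383), followed by Tspan4, 1.66-fold (-0.73, SE 0.20, adjusted p = 0.0381), Bhlhe41, 1.57-fold (-0.65, SE 0.14, adjusted p = 0.0134), Tef, 1.54-fold (-0.62, SE 0.17, adjusted p = 0.0376), and Rora, 1.42-fold (-0.50, SE 0.13, adjusted p = 0.0285). Dbp at -0.54 (SE 0.20, adjusted p = 0.101), Bhlhe40 at -0.24 (SE 0.12), Nfil3 at 0.23 (SE 0.18) and Ciart at 0.34 (SE 0.26, adjusted p = 0.415) did not pass. No member separated the groups without overlap, which 2.44% of all genes did upward and 4.08% downward. That count rests on the library labelled wild type TAC 1: without it Bhlhe41, Rora and Tspan4 were lower in every knockout library, as 7.56% of all genes were, and no member was higher in every one, as 6.81% were. Leaving out the library labelled wild type TAC 1 left the same 5 members called, with larger differences, from -1.61 for Hlf to -0.59 for Rora, and with an adjusted p of 0.000223 for Bhlhe41 and 0.000271 for Tspan4, the lowest of ranges that reached 0.0586 and 0.12 with other libraries left out. In that fit 2939 genes, 18.5% of those tested, were called in place of 1483. With all libraries kept, 2 members passed without the filter on low counts (Bhlhe41 and Rora), 1 when the other 2 groups were left out (Bhlhe41) and 0 with the replicate number as a block. Fewer members passed in other fits. Bhlhe41 alone passed without knockout TAC replicate 2 or 4, where 606 and 451 of all genes passed in place of 1483. The same held without wild type TAC replicate 3, 4 or 6, where 657, 669 and 972 of all genes passed. No member passed without knockout TAC replicate 5, where 302 of all genes did. Calls were thus lost over all genes in these fits, and not in the members alone. Bhlhe41 and Rora passed without either wild type sham library, these and Tef without either knockout sham library, and Bhlhe41, Rora and Tspan4 without wild type TAC replicate 2. Without knockout TAC replicate 1, Tef was lost, and without wild type TAC replicate 7, Tspan4 was lost and Dbp passed. Of all genes 2173 and 1419 passed in these 2 fits, and 1609 without wild type TAC replicate 2. Fibroblast markers were lower in knockout for 4 of 8 genes, among them Pdgfra (-0.69, SE 0.09) and Tcf21 (-0.91, SE 0.13), and macrophage markers for 5 of 8, among them Mrc1 (-0.60, SE 0.13) and Adgre1 (-0.71, SE 0.17). These counts were 8 of 8 and 7 of 8 without the library labelled wild type TAC 1. Of the 18 immediate early genes 9 were higher in knockout, among them Jun (0.56, SE 0.08), Dusp1 (0.95, SE 0.13) and Egr1 (0.99, SE 0.16), and Ier3 was lower (-0.70, SE 0.19, adjusted p = 0.0416), which is named after its values were seen. The part of these lists in the levels of the members was not tested.

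Whether TAC acted differently in the genotypes was read from the genotype by surgery interaction, in which none of the 9 members and 0% of all genes passed in edgeR's test. At an unadjusted p under 0.05 there were 3 members, Ciart (1.63, SE 0.51), Dbp (1.21, SE 0.37) and Nfil3 (-0.70, SE 0.33), against 4.08% of all genes, each with an adjusted p of 0.997. DESeq2 and limma voom called no member either. The calls of Dbp, Bhlhe40 and Ciart in knockout and their absence in wild type are therefore not shown to differ.

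The genes of the clock loop itself were read from a list of 10. In knockout sham against wild type sham none of them passed, against 0.126% of all genes, and 9 of 10 had an unadjusted p under 0.05, against 11.3% of all genes. The estimates were 3.09 for Arntl (SE 0.65, adjusted p = 0.105), 0.55 for Clock (SE 0.12), -0.93 for Cry2 (SE 0.19, adjusted p = 0.0625) and -0.62 for Nr1d1 (SE 0.20). Arntl, the activator partner of CLOCK, measured 1.45 and 2.49 CPM in wild type sham, 16.95 and 16.4 in knockout sham and 7.46, 11.8, 7.51 and 11.7 in knockout TAC, and 1.42, 2.99 and 7.43 as the lowest, median and highest of wild type TAC. The knockout sham libraries, lowest for Dbp and Ciart and highest for Nfil3, were thus the highest for Arntl. After TAC, Arntl was higher (1.33, SE 0.38, adjusted p = 0.0462) and Cry2 (-0.63, SE 0.12, adjusted p = 0.00774) and Cry1 (-0.82, SE 0.18, adjusted p = 0.0133) were lower in knockout than in wild type, and the other 7 did not pass, which makes 3 of 10 against 9.34% of all genes. TAC against sham called Cry2 in wild type (-0.48, SE 0.14, adjusted p = 0.043), 1 of 10 against 12.2% of all genes, and no gene of the list in knockout, against 4.08%. Without the library labelled wild type TAC 1, Arntl (3.09, adjusted p = 0.0348) and Cry2 (-0.93, adjusted p = 0.0333) passed after sham, where 0.397% of all genes did. In that fit 6 of 10 passed after TAC, against 18.5% of all genes, up from 9.34%. These were 2 higher and 4 lower in knockout, with the 3 above among them.

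The log2 ratio of Dbp to Arntl in a library sets an output against an activator that peaks at another time of day. It was 6.56 and 5.59 in wild type sham, 1.22 and 1.18 in knockout sham, 2.46 to 3.78 in knockout TAC and 3.55 to 6.80 in wild type TAC with a median of 5.44. The lowest wild type TAC values, 3.55 in replicate 7 and 3.60 in the library labelled replicate 1, fell in the knockout TAC range. These ratios are not scaled to gene length and are read across libraries only.

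**Figure D3:**
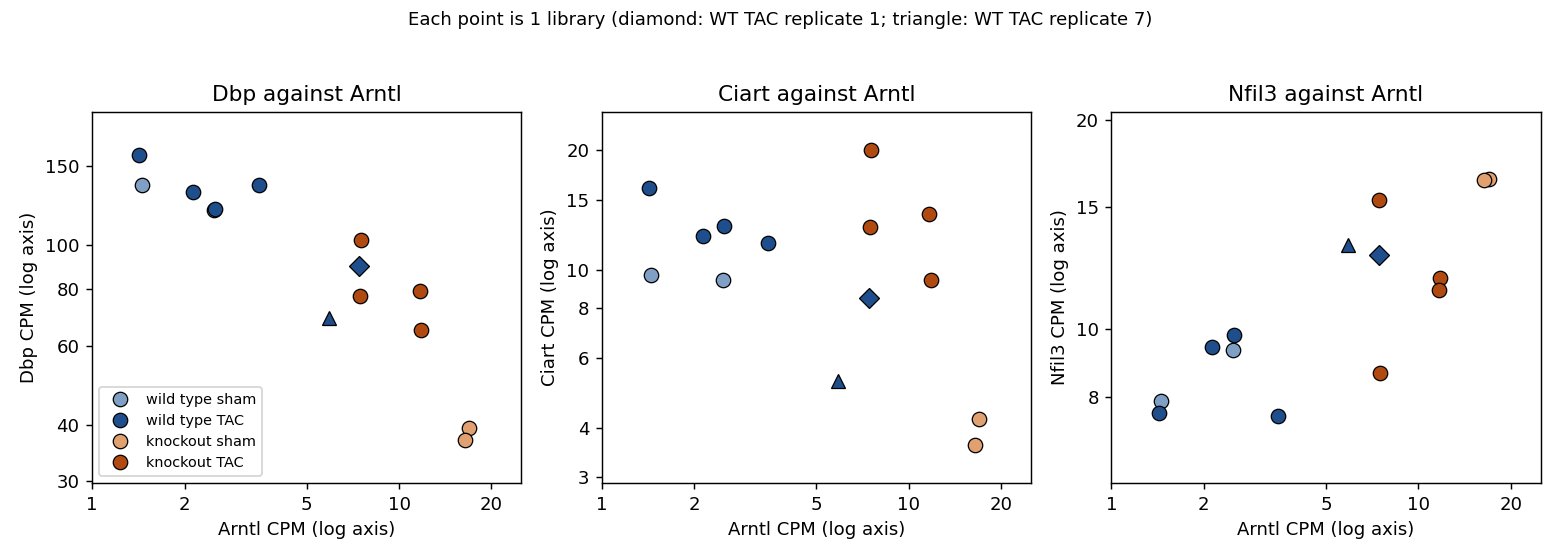
Dbp, Ciart and Nfil3 (vertical axes, CPM, log scale) against Arntl (horizontal axis, CPM, log scale), 1 point a library, coloured by group; the diamond is the library labelled wild type TAC 1 and the triangle is wild type TAC replicate 7. The knockout sham libraries lie at 16.95 and 16.4 CPM of Arntl with the lowest Dbp and Ciart and the highest Nfil3, and the knockout TAC libraries lie at 7.46 to 11.8 CPM of Arntl.

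Genes known to follow the clock in heart and other tissues (18 on the list) were mixed. After TAC, 2 were lower in knockout than in wild type, the cell cycle kinase gene Wee1 (-0.91, SE 0.15, adjusted p = 0.00282) and the P450 reductase gene Por (-0.93, SE 0.17, adjusted p = 0.00653), and 2 were higher, Pdk4, which restrains glucose oxidation (1.15, SE 0.26, adjusted p = 0.0209), and Leo1 (0.40, SE 0.12, adjusted p = 0.0462). These 4 of 18 stand against 9.34% of all genes. After sham the same 4 genes had the smallest p of the list, with Wee1 at -1.07 (SE 0.22), Por at -1.09 (SE 0.25), Pdk4 at 2.1 (SE 0.43) and Leo1 at 0.62 (SE 0.19), and none passed. In wild type, 6 of the 18 fell with TAC, among them Ppara, a regulator of fatty acid oxidation (-1.65, SE 0.24), Nampt (-0.54, SE 0.12), Kcnh2 (-0.64, SE 0.15) and Klf15 (-0.52, SE 0.13), against 12.2% of all genes called. In knockout, 2 of the 18 fell with TAC, Klf15 (-0.84, SE 0.14, adjusted p = 0.00563) and Nampt (-0.60, SE 0.13, adjusted p = 0.017), against 4.08% of all genes. The calls of this list without the library labelled wild type TAC 1 were 7 lower with TAC in wild type, the same 2 in knockout, and 4 higher and 4 lower in knockout after TAC, the 4 genes above among them. The shares of all genes called in that fit were 17.4%, 5.3% and 18.5%, in the same order. Wee1 (adjusted p = 0.0025) and Por (adjusted p = 0.00323) then also passed after sham, where 0.397% of all genes did. Of 23 tetraspanins tested beside Tspan4, 4 rose with TAC in wild type, Cd9 (0.83, SE 0.12), Cd63 (0.79, SE 0.21), Tspan6 (0.76, SE 0.19) and Tspan17 (0.60, SE 0.17), against 12.2% of all genes. In knockout 2 rose with TAC, Cd9 (0.54, SE 0.12) and Tspan9 (0.61, SE 0.17), against 4.08%. After TAC, 1 tetraspanin was lower in knockout, Tspan5 (-0.64, SE 0.16), and 4 were higher, among them Tspan18 (0.69, SE 0.18), Tspan2 (0.61, SE 0.16) and Tspan15 (0.60, SE 0.17), which makes 5 of 23 against 9.34% of all genes. With the library labelled wild type TAC 1 left out, these counts were 5 higher with TAC in wild type, 2 higher in knockout, and 4 higher and 3 lower in knockout after TAC. All tetraspanins called with every library were among them. They stand against 17.4%, 5.3% and 18.5% of all genes called in that fit.

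The members differed in how far libraries of the same group lay apart. The SD of log2(CPM + 0.5) within groups was 0.60 for Hlf, above that of 98.6% of all genes tested, 0.45 for Ciart (95.3%), 0.35 for Dbp (86.7%) and 0.34 for Tspan4 (86.1%). For Bhlhe40 it was 0.20 (52.9%), close to the median of all genes, 0.19. In wild type TAC the highest library exceeded the lowest 3.55-fold for Hlf, 3.06-fold for Ciart, 2.56-fold for Tspan4 and 2.30-fold for Dbp. The spread of Tspan4 rests on the library labelled wild type TAC 1: without it the SD of Tspan4 was 0.19 (above 50.4% of all genes) and its highest wild type TAC library exceeded the lowest 1.46-fold. Without that library Hlf was at 0.51 (97.6%) and 3.19-fold, Ciart at 0.46 (96.25%) and 3.06-fold, Dbp at 0.35 (87.5%) and 2.30-fold, and Bhlhe40 at 0.21 (57.3%). The library labelled wild type TAC 1 lay within the knockout TAC range for 8 of the 9 members, the exception being Ciart. Replicate 7 did so for 5 members, and replicates 2, 3, 4 and 6 for 1 to 3. The share of all genes in that range was not computed for any library, so these counts do not set the members apart.

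Deviations from the group mean were set against each other over the 14 libraries, as a description, since all libraries share the tissue and the composition of cells. Dbp, Ciart, Tef and Hlf varied together, with Pearson r of 0.97 for Dbp and Ciart, 0.94 for Dbp and Tef, 0.94 for Tef and Hlf and 0.88 for Dbp and Hlf. Nfil3 varied against them, at -0.84 with Dbp, and so did Arntl, at -0.82 with Dbp and -0.86 with Hlf. Bhlhe40 and Tspan4 varied little with Dbp (0.12 and 0.05). With Hlf they stood at 0.15 and 0.34, and with Arntl at -0.25 and -0.44. The block of Dbp, Ciart, Tef and Hlf had r of 0.82 (Hlf and Ciart) to 0.97 with all libraries. Without the library labelled wild type TAC 1 its r ran from 0.88 to 0.97. Tspan4 then stood at -0.46 with Dbp, -0.60 with Tef and 0.55 with Nfil3, and Bhlhe41 and Tspan4 went from 0.83 to 0.46. The r of Tspan4 also changed sign with Hlf, to -0.40, and with Arntl, to 0.20. The 4 genes of the block also moved with markers of cell types once that library was left out. With the summed cardiomyocyte markers r was 0.86 for Hlf, 0.80 for Tef, 0.68 for Dbp and 0.60 for Ciart, from 0.28, 0.45, 0.38 and 0.39 with all libraries. With the fibroblast markers it was -0.71 for Hlf, -0.83 for Tef, -0.65 for Dbp and -0.69 for Ciart, from -0.14, -0.42, -0.32 and -0.43. The part of these cell types in the levels of the 4 genes was not tested. The deviation of Tspan4 followed the summed fibroblast markers (r = 0.81, and 0.76 without that library) and macrophage markers (0.83 and 0.61). In the same order, Tspan4 ran against the endothelial markers (-0.72 and -0.72) and the mitochondrial share (-0.70 and -0.64). Bhlhe40 stood at 0.57 and 0.57 with fibroblast, 0.56 and 0.595 with macrophage and -0.74 and -0.75 with endothelial markers. Without that library Bhlhe41 went from 0.69 to 0.49 with fibroblast and from 0.70 to 0.32 with macrophage markers. With fibroblast markers Nfil3 went from 0.14 to 0.50 and Rora from 0.28 to -0.31. The part of these measures in the levels of these genes was not tested.

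**Figure D4:**
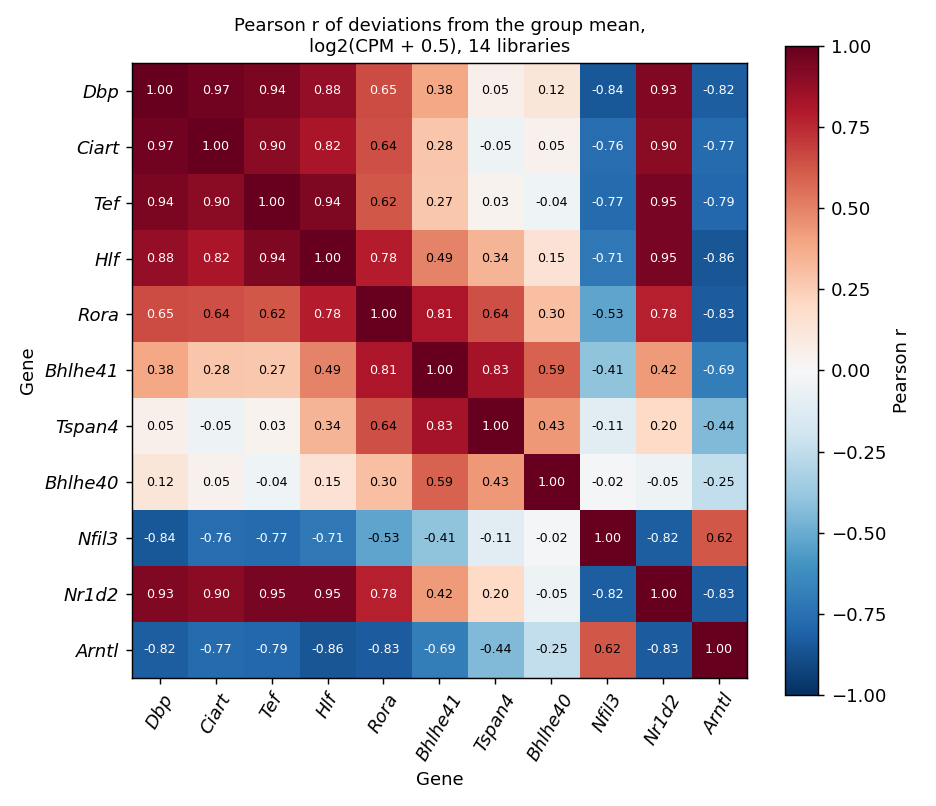
Pearson r between the deviations of log2(CPM + 0.5) from the group mean for the 9 genes and for Nr1d2 and Arntl (both axes), over 14 libraries, from -1 (blue) to 1 (red). Dbp, Ciart, Tef and Hlf form a block of r from 0.82 to 0.97, and Nfil3 and Arntl have negative r with each of these 4 genes.

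Outside the members, the tested genes with the pattern of deviations most like that of Dbp were Topors (r = 0.94), Nfia (0.94) and Pik3ip1 (0.93). For Nfil3 they were Brd7 (0.94), Gm49490 (0.91) and Aatf (0.90), for Bhlhe40 Smarcc1 (0.95), Lgr4 (0.94) and Dcaf12 (0.94), and for Tspan4 Glul (0.98), Crispld2 (0.97) and Mtmr14 (0.96), all over 14 libraries. Without the library labelled wild type TAC 1, 1 of the 3 names stayed for Dbp, 2 for Nfil3, 1 for Bhlhe40 and none for Tspan4. Nr1d2, a repressor of the clock loop, was among the 3 genes most like both Tef (0.95) and Hlf (0.95), and is named here after its values were seen. With the library labelled wild type TAC 1 left out it was among the 3 for neither gene, at 0.95 with Tef and 0.93 with Hlf.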

How the data were processed

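The authors deposited raw counts of reads per gene, whole numbers without normalization, for 14 libraries and 54532 gene IDs. Per the submitters' processing notes, FastQC, HISAT2 2.1.0, featureCounts and edgeR were used on GRCm38. For the tools' roles and settings, the annotation release and the use of strand, nothing is given in the sources used here. Differential expression was computed from these counts with edgeR 4.0.16 in R 4.3.3: filterByExpr on the group (15876 genes), TMM factors, 4 group means over all libraries, glmQLFit (robust) and the quasi-likelihood F test in 5 comparisons, with Benjamini-Hochberg adjustment over all genes and a threshold of 0.05. The SE is the size of the log2 fold change divided by the square root of F. The steps were tested on simulated counts. Levels are CPM with TMM factors. RPKM divides CPM by the exon union of GENCODE M21, which held 54409 of the IDs. Promoters came from RefSeq (GRCm38.p6). A symbol in the text stands for the ID that the table pairs with it.

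The members and gene lists were chosen with earlier results of these data known. The genes named are the 9 members, Ccl24, at most 4 genes a list with the smallest unadjusted p in the comparison described, and the 3 genes most like Dbp, Nfil3, Bhlhe40 and Tspan4. Results for the list of other clock regulators are not reported here. The lists were core clock, other clock regulators, clock-controlled outputs, glucocorticoid targets, immediate early genes, tetraspanins and markers of cell types. Of 12 glucocorticoid targets, 1 fell and none rose with TAC in either genotype, and 2 were higher and 1 lower in knockout after TAC. Without the library labelled wild type TAC 1, 2 were higher and 2 lower in knockout after TAC. In this comparison 18.5% of all genes were called in that fit and 9.34% with every library. Among marker lists not described above, 1 of 2 skeletal muscle markers tested (Acta1, which the stressed heart also uses) rose with TAC in both genotypes, 1 of 8 endothelial markers was higher in knockout after TAC, and no atrial, lymphocyte or adipocyte marker passed. Nothing in the labels says how libraries relate to litters or days, so p-values measure the spread between these libraries. Alternatives were RLE size factors, no filter, a replicate block, the compared groups alone, limma voom 3.58.1, DESeq2 1.42.0 and leaving out each library.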

Additional observations from a re-analysis of the deposited data

How the results depend on the processing

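Of 891 member fold changes under an alternative, 781 kept direction and side of the threshold, 71 lost the call, 30 gained it and 9 changed sign, none of them in a called value. Members called were, for TAC against sham in wild type, 0 in the main result and 1 with DESeq2, and 0 to 2 with a library left out. For TAC against sham in knockout they were 3, 1 without the filter (Bhlhe40), 5 with the compared groups alone and 0 to 4 with a library left out. For knockout against wild type after TAC they were 5, 2 without the filter (Bhlhe41 and Rora), 1 with the groups alone (Bhlhe41) and 0 to 5 with a library left out. After sham they were 0, 1 with RLE size factors, 1 with limma voom (Dbp in both), 3 with DESeq2, 8 with the groups alone (all but Rora) and 0 to 3 with a library left out. The interaction called 0 members in every fit run, and could not be fitted with 2 groups alone. Counts of all genes called moved as well. After sham they were 20 in the main result, 29 with RLE size factors, 17 with limma voom, 147 with DESeq2 and 1158 with the groups alone. For TAC in knockout they were 648, 578 without the filter and 1458 with the groups alone. For knockout against wild type after TAC they were 1483, 1247 without the filter and 783 with the groups alone. For TAC in wild type they were 1930, and 2803 with DESeq2. The cause of these differences was not tested.

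The check of replicate numbers could not decide whether they pair the libraries. Over 13 pairs with the same number the median correlation of deviations was -0.06, and 1 pair exceeded 0.1. Over 55 pairs with different numbers the median was 0.025, and 14 pairs exceeded 0.1. Libraries with the same number were thus no more alike than others by this measure. In a sham group of 2 the deviations mirror each other, so pairs with a sham library are not independent. Between the TAC groups, r was -0.50 for number 1, -0.29 for number 2 and -0.24 for number 4. With the replicate block, 0 members passed in knockout against wild type after TAC, 1 after sham (Dbp), 2 for TAC in knockout and 0 for TAC in wild type, and of all genes 22 and 367 passed for TAC in wild type and in knockout, and 45 and 13 between the genotypes after TAC and after sham.

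Signs changed for values near 0: with a library left out, Rora in TAC against sham in wild type ran from -0.165 to 0.00333 (above 0 without wild type TAC replicate 1), Tef in TAC against sham in knockout from -0.148 to 0.0221 (above 0 without knockout TAC replicate 2) and the interaction of Hlf from -0.307 to 0.123 (above 0 in 6 fits), and limma voom gave 0.0237 for the last. Counts of all genes moved by over 1.5 times with the groups alone (736, 1458, 783 and 1158, in the order above, against 1930, 648, 1483 and 20), with DESeq2 (1342 in TAC against sham in knockout, 2351 in knockout against wild type after TAC, 147 after sham, 6 in the interaction) and without the filter (44 after sham, 3 in the interaction). With a library left out they ran from 0 to 2756, 1 to 1361, 302 to 2939 and 3 to 79. For TAC against sham in wild type, RLE size factors gave 950 higher and 986 lower genes and limma voom 702 and 972, against 1009 and 921. Scaling by total counts moved 8 of 36 group means of members by more than their SD, each in a sham group of 2. The 3 genes most alike kept 1 name for Dbp, 2 for Nfil3, 1 for Bhlhe40 and 0 for Tspan4 without wild type TAC replicate 1.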
